A study of Homo sapiens with 6 samples.

Results

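The 32 genes described here encode the enzymes and carriers of serine, glycine, folate and methionine metabolism. They were taken from the deposited count table by their gene symbols and are 32 of its 26485 entries. All 32 symbols have an entry. A count was found in some library for all but CHDH and CBS, and 25 of the 32 passed the filter on low counts and were tested.

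In this network serine is made from a glycolytic intermediate by PHGDH, PSAT1 and PSPH. Serine hydroxymethyltransferases split serine into glycine and a single carbon carried by tetrahydrofolate, and parallel sets of enzymes in the cytosol and in mitochondria pass that carbon on to purines, thymidylate, formate and methionine. Methionine is activated to S-adenosylmethionine, the general methyl donor, and the homocysteine left after methyl transfer is either remethylated or sent through transsulfuration to cysteine. Proliferating lymphoblasts draw on the pathway for nucleotides, and antifolates that enter through SLC19A1 and are retained by FPGS are standard drugs in acute lymphoblastic leukemia.

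RNA of REH cells was sequenced in 2 groups of 3 libraries, from cells given 25 µM ML141, a compound known as an inhibitor of CDC42, or given DMSO, its solvent, each for 24 h. REH is an established human cell line that derives from a precursor B cell leukemia, so all 6 libraries come from 1 line, at 1 dose and 1 time. The labels give 3 independent experiments. The comparison asks which transcripts differ in REH cells given ML141.

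Total counts were 10436147 to 12308039 in the ML141 libraries and 8284299 to 10837224 in the DMSO libraries. At this depth 1 count stands for 0.0754 to 0.130 CPM (the count scaled by library size and TMM factor). For a gene with no count the upper limit, set at 3 counts in a library, is 0.226 to 0.389 CPM and covers counting error only. Markers of the labelled cell type were present, with a summed level over 8 precursor B cell genes of 4653 to 5102 CPM with ML141 and 3566 to 3785 CPM with DMSO. At an edgeR adjusted p under 0.05, 6 of the 8 were called higher, as were 26.7% of all genes tested. RAG1, the highest of the 8, was not called (log2 0.11, edgeR adjusted p = 0.371), and VPREB1 had 1 count in all and was not tested. Of the T cell markers CD3D, CD3G and CD2 had no count, and of the red cell markers HBB had none. Myeloid markers summed to 29.3 to 30.9 CPM with ML141 and 43.8 to 45.3 CPM with DMSO, most of it from MPO, at a mean of 26.2 and 41.4 CPM. Stromal markers summed to 34.4 to 41.6 CPM with ML141 and 41.1 to 46.5 CPM with DMSO, most of it from PDGFRB, at a mean of 35.7 and 41.3 CPM. A library of the treated group stood apart on cell-cycle genes: ML141 replicate 1 was the lowest ML141 library in all 9 of a list of S phase reporter genes, which summed to 910, 1489 and 1338 CPM in ML141 replicates 1, 2 and 3 and to 4566, 4344 and 4512 CPM in DMSO replicates 1, 2 and 3.

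The 32 genes did not move as a block. Of the 25 tested, 7 were higher with ML141 and 9 lower by edgeR's quasi-likelihood test at an adjusted p of 0.05, and 9 did not pass. The higher count was 4 without DMSO replicate 2, 8 without ML141 replicate 1 and 11 with library totals in place of TMM factors, and the lower counts under these were 9, 10 and 8. Among all 11454 genes tested, 54.4% were called, 26.7% higher and 27.7% lower, so the higher share of 28% lies near the background and the lower share of 36% a little above it. The median log2 fold change of the 25 was 0.02, the same as that of all genes to 2 decimals. Members with few counts could pass the low-count filter on 1 group alone, so these counts describe the 25 and not all 32. The ML141 and DMSO libraries did not overlap in 17 of the 25, with ML141 above in 7 and below in 10, where 61.2% of all genes did not overlap, 30.5% with ML141 above and 30.7% below. Of the members called at an adjusted p under 0.05, 8 fell by more than 1.5-fold and 2 rose by more than 1.5-fold, where 15.5% of all genes tested were called with such a fold in each direction. In a bulk library fewer cells with a transcript and less of it per cell cannot be told apart. The higher share of all called genes was 49.1%, but 59.5% with upper-quartile factors and 66.1% with library totals in place of TMM, which put the median of all genes at 0.12 and 0.19 on the log2 scale.

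**Figure D1:**
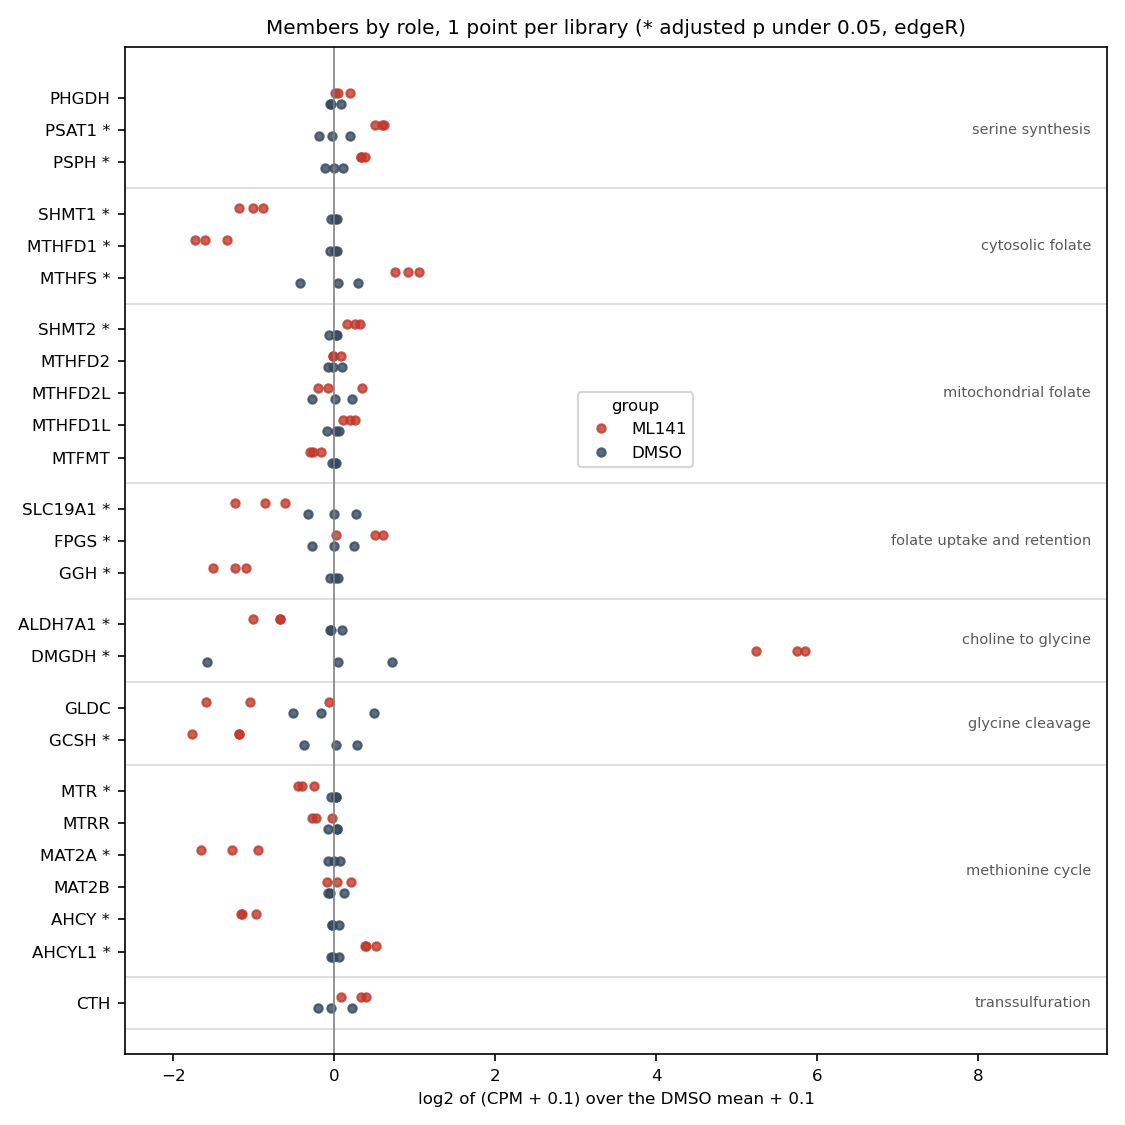
Level of each tested member in each library, as the log2 of (CPM + 0.1) over the DMSO mean + 0.1, with ML141 points above DMSO points for each gene and an asterisk where edgeR's adjusted p is under 0.05. DMGDH lies far to the right with ML141, the cytosolic folate genes SHMT1 and MTHFD1 lie to the left, and the mitochondrial folate genes stay close to 0.

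The first step of serine synthesis did not change detectably while the next steps rose. PHGDH (chromosome 1, 119648411 to 119744226, hg38), the dehydrogenase that commits 3-phosphoglycerate to serine, had 407, 451 and 396 CPM in ML141 replicates 1, 2 and 3 and 418, 384 and 379 CPM in DMSO replicates 1, 2 and 3. The libraries overlapped, and PHGDH was not called (log2 0.09, SE 0.082, edgeR adjusted p = 0.383). PSAT1 (chromosome 9, 78297143 to 78330093), the aminotransferase that follows, had 244, 239 and 226 CPM with ML141 and 183, 156 and 139 CPM with DMSO. Every ML141 library was above every DMSO library, a rise of 1.49-fold (log2 0.57, SE 0.099, edgeR adjusted p = 4.57e-04). PSPH (chromosome 7, 56011051 to 56051604), the phosphatase that releases serine, averaged 90.1 ± 1.82 CPM with ML141 and 70.5 ± 5.74 CPM with DMSO (SD, n = 3 each), a rise of 1.28-fold (log2 0.35, SE 0.090, edgeR adjusted p = 0.00536). With library totals PHGDH also passed the test (log2 0.26, edgeR adjusted p = 0.0145), where the median of all genes was 0.19. Within libraries PSAT1 over PHGDH was 0.599, 0.531 and 0.572 with ML141 and 0.438, 0.406 and 0.367 with DMSO, and the groups did not overlap. PSPH over PHGDH was 0.227, 0.197 and 0.226 with ML141 and 0.183, 0.184 and 0.172 with DMSO, again without overlap.

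Of the cytosolic folate enzymes SHMT1 and MTHFD1 fell, and the barely expressed MTHFS had a call as higher that several alternatives did not keep. SHMT1 (chromosome 17, 18327860 to 18363563), the cytosolic serine hydroxymethyltransferase, had 36.2, 44.6 and 41.2 CPM with ML141 and 80.3, 84.6 and 83.5 CPM with DMSO. Both groups were tight and far apart, 2.03-fold lower with ML141 (log2 -1.02, SE 0.0998, edgeR adjusted p = 5.94e-06). MTHFD1 (chromosome 14, 64388031 to 64463457), the trifunctional enzyme that interconverts the cytosolic folate forms and activates formate, had 105, 138 and 114 CPM with ML141 and 353, 358 and 337 CPM with DMSO. This was the largest fall in log2 terms among the 25 tested members, 2.93-fold (log2 -1.55, SE 0.1004, edgeR adjusted p = 3.26e-07), and MTHFD1 was 206th from the lowest of the 11454 fold changes. MTHFS (chromosome 15, 79833585 to 79897379), which recycles formyl-tetrahydrofolate, had 1.76, 2.187 and 1.98 CPM with ML141 and 1.04, 0.725 and 1.25 CPM with DMSO, 71 counts against 28. It was called higher (log2 0.97, SE 0.310, edgeR adjusted p = 0.0195). The call was lost with the DESeq2 Wald test (adjusted p = 0.0984) and without ML141 replicate 2 (0.0556), ML141 replicate 3 (0.0521) or DMSO replicate 2 (0.101, all edgeR). A filter that asks for counts in both groups leaves MTHFS untested, its DMSO counts being 8, 7 and 13. In the authors' deposited table its adjusted p is 0.108. Of the exon bases of MTHFS 49.3% are shared with ST20-MTHFS on the same strand, so reads of these genes could be split. ALDH1L1, the cytosolic formyl-tetrahydrofolate dehydrogenase, had 1 count in the ML141 libraries together and 0 in the DMSO libraries.

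The promoter of MTHFD1 is shown as that of the member with the largest fall. The window runs from 250 bases before to 50 bases after the annotated start, chr14:64388103-64388402 on the plus strand (RefSeq, GRCh38.p14), 5′ to 3′, with a CACGTG motif in capitals from position 236 of the window.
MTHFD1: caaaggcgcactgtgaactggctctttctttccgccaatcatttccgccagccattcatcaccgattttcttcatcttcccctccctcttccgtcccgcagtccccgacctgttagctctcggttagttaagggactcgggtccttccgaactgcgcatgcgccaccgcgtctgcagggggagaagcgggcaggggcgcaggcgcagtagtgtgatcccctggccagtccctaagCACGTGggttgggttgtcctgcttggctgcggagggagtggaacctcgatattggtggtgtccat

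Of the mitochondrial folate enzymes SHMT2 was called slightly higher, and no other tested enzyme passed the test. SHMT2 (chromosome 12, 57229327 to 57234935), the mitochondrial serine hydroxymethyltransferase, had 308, 296 and 277 CPM with ML141 and 253, 237 and 251.4 CPM with DMSO. The groups did not overlap, and SHMT2 rose by 0.25 on the log2 scale (SE 0.077, edgeR adjusted p = 0.0164), a call lost without DMSO replicate 2 (edgeR adjusted p = 0.0943). Its exons share 14.1% of bases with AC137834.2 on the opposite strand. MTHFD2 (chromosome 2, 74198562 to 74217565), the dehydrogenase and cyclohydrolase that is high in tumours and embryos, had 445, 416 and 416 CPM with ML141 and 448, 416 and 397 CPM with DMSO. The libraries overlapped and MTHFD2 was not called (log2 0.02, SE 0.078, edgeR adjusted p = 0.857), although with library totals it was (log2 0.19, edgeR adjusted p = 0.0314). Of its exon bases 29.7% overlap SLC4A5 on the opposite strand, whose reads cannot be told apart from its own with this unstranded kit. MTHFD2L, its paralog, averaged 11.9 ± 2.43 CPM with ML141 and 11.5 ± 1.97 CPM with DMSO (SD, n = 3 each; log2 0.05, SE 0.186, edgeR adjusted p = 0.851).

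MTHFD1L (chromosome 6, 150865549 to 151101887), which releases formate from mitochondria, had 177, 170 and 160 CPM with ML141 and 151, 155 and 139 CPM with DMSO. All ML141 libraries were above all DMSO libraries, but the gene missed the threshold (log2 0.19, SE 0.081, edgeR adjusted p = 0.0692). It passed with upper-quartile factors (edgeR adjusted p = 0.00609) and with library totals (0.00150). MTFMT, which formylates the initiator tRNA of mitochondria, averaged 20.2 ± 1.02 CPM with ML141 and 23.9 ± 0.467 CPM with DMSO (SD, n = 3 each; log2 -0.25, SE 0.113, edgeR adjusted p = 0.0835). All ML141 libraries were below all DMSO libraries for MTFMT, but it was not called. ALDH1L2, the mitochondrial formyl-tetrahydrofolate dehydrogenase, had 1 count in the ML141 libraries together and 0 in the DMSO libraries.

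The ratio of 2 members within a library does not depend on how libraries are scaled. SHMT2 over SHMT1, mitochondrial over cytosolic, was 8.46, 6.62 and 6.70 in ML141 replicates 1, 2 and 3 and 3.15, 2.80 and 3.01 in DMSO replicates 1, 2 and 3. This is 2.42-fold higher with ML141. MTHFD2 over MTHFD1 was 4.22, 3.01 and 3.63 with ML141 and 1.27, 1.16 and 1.18 with DMSO, 2.98-fold higher. MTHFD1L over MTHFD1 was 1.68, 1.23 and 1.40 with ML141 and 0.429, 0.434 and 0.413 with DMSO, 3.35-fold higher, so that MTHFD1L counts exceeded MTHFD1 counts with ML141 and were below them with DMSO. In all 3 ratios ML141 replicate 1 was the highest library. MTHFD2 over MTHFD2L, both mitochondrial, differed by -0.02 on the log2 scale with overlapping libraries (2-sided exact permutation p = 0.9). Of 13 ratios planned, 10 could be computed, since 3 involve genes with few or no counts. In 8 of the 10 the groups did not overlap, where 61.2% of single genes tested did not overlap. A share for ratios of other genes is not given here. Some of the 10 have a member in common, and the ratios restate in part the changes of single members. For each of these 8 the exact permutation test, 2-sided, gave p = 0.1, which is as low as groups of 3 and 3 allow, and p = 0.125 after Benjamini-Hochberg adjustment over the 10.

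**Figure D2:**
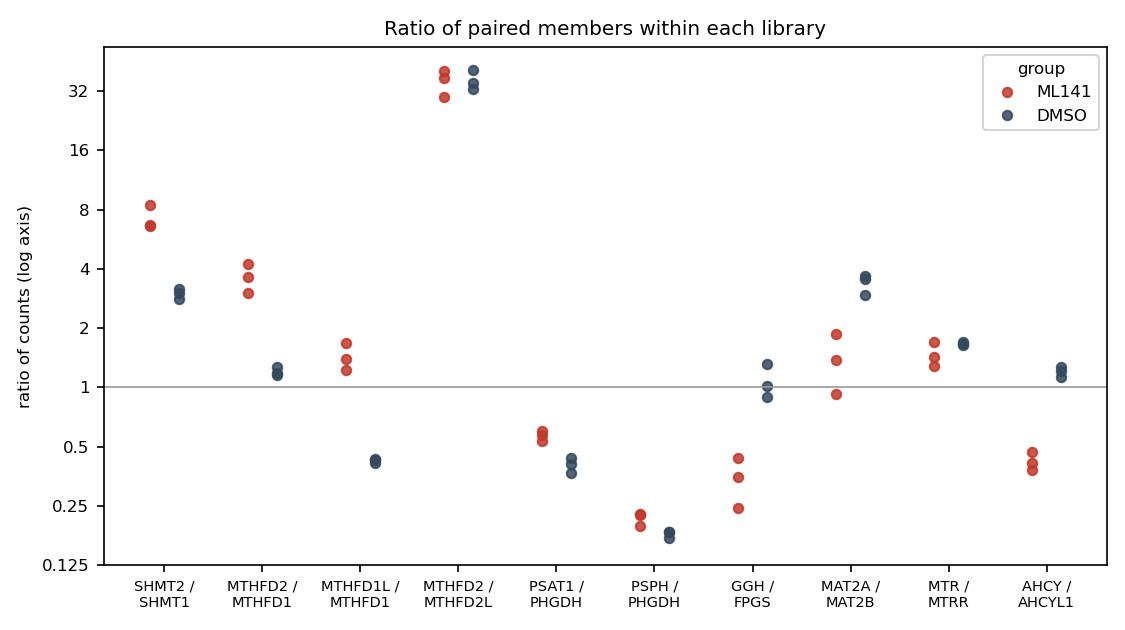
Ratio of the counts of 10 pairs of members within each library, on a log axis, with the 3 ML141 libraries left of the 3 DMSO libraries and a line at 1. The ML141 and DMSO points separate in all pairs but MTHFD2 / MTHFD2L and MTR / MTRR.

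The MTHFD1L promoter is shown because it is the only one of the 26 members with a promoter window that holds TGATGNAA, the core of the amino acid response element bound by ATF4 with a C/EBP partner, a choice made after the values were seen. The capitals in chr6:150866236-150866535, plus strand (RefSeq, GRCh38.p14), mark CACGTG from position 97 and TGATGCAA from position 122 of the window.
MTHFD1L: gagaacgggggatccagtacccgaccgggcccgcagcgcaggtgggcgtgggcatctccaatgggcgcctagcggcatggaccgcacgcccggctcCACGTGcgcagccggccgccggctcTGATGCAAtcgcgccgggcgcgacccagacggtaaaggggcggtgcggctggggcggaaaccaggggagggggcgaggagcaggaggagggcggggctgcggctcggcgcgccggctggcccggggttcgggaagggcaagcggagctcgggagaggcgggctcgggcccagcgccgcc

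The transcripts of the folate carrier SLC19A1 and of GGH fell, and that of FPGS did not. SLC19A1 (chromosome 21, 45493572 to 45544411), the reduced folate carrier and the main route of methotrexate into leukemia cells, had 14.1, 21.6 and 18.1 CPM with ML141 and 26.3, 33.1 and 40.01 CPM with DMSO. The highest ML141 library was below the lowest DMSO library, a fall of 1.85-fold (log2 -0.88, SE 0.178, edgeR adjusted p = 0.00129). GGH, the lysosomal hydrolase that removes glutamates from folates so that they can leave the cell, had 26.5, 21.9 and 29.2 CPM with ML141 and 64.4, 59.9 and 62.8 CPM with DMSO. It fell 2.41-fold (log2 -1.27, SE 0.117, edgeR adjusted p = 3.97e-06). FPGS (chromosome 9, 127794597 to 127814327), the synthetase that adds those glutamates, had 60.5, 90.3 and 84.2 CPM with ML141 and 48.9, 59.2 and 70.2 CPM with DMSO. The groups overlapped, and FPGS passed the test narrowly as higher (log2 0.40, SE 0.157, edgeR adjusted p = 0.0496). That call was lost with limma-voom (adjusted p = 0.0586) and without ML141 replicate 2, ML141 replicate 3, DMSO replicate 1 or DMSO replicate 2 (edgeR adjusted p = 0.129 to 0.193). Within libraries GGH over FPGS was 0.440, 0.245 and 0.349 with ML141 and 1.32, 1.01 and 0.895 with DMSO, 3.17-fold lower and without overlap.

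An FPGS promoter window is shown beside that of MTHFD1 because both hold CACGTG while the genes were called in opposite directions. The FPGS windows chr9:127802608-127802907 and chr9:127802632-127802931 do not hold the motif. The window shown is chr9:127802931-127803230, plus strand (RefSeq, GRCh38.p14), with the motif in capitals from position 175.
FPGS: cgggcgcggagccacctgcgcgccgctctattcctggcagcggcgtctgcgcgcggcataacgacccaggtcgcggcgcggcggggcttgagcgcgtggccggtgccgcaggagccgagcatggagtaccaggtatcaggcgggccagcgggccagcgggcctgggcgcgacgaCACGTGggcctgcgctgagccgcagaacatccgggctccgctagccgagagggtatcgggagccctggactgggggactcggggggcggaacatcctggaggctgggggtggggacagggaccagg

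Among the enzymes that turn choline into glycine, DMGDH rose by far the most, SARDH had more counts in every ML141 library, and the earlier enzyme ALDH7A1 fell. CHDH, the choline dehydrogenase, had no count in any library. ALDH7A1 (chromosome 5, 126531200 to 126595418), which oxidises betaine aldehyde to betaine and also acts in lysine breakdown, had 47.6, 60.0 and 60.1 CPM with ML141 and 93.1, 102 and 92.7 CPM with DMSO. It fell 1.72-fold with no overlap (log2 -0.78, SE 0.106, edgeR adjusted p = 7.73e-05). DMGDH, the mitochondrial flavoenzyme that takes a methyl group from dimethylglycine to give sarcosine, had 184, 148 and 185 counts in ML141 replicates 1, 2 and 3 and 3, 2 and 0 counts in DMSO replicates 1, 2 and 3. That is 17.0, 11.2 and 15.9 CPM with ML141 and 0.389, 0.207 and 0 CPM with DMSO, with no overlap (log2 6.25, SE 0.423, edgeR adjusted p = 4.32e-07). DMGDH passed the low-count filter only through the ML141 libraries, where it is high. The filter that asks for counts in both groups leaves DMGDH and MTHFS untested and takes the members called higher to 5. Because DMSO is near the counting limit the size of the fold is loose: the fitted log2 value was 7.04 without DMSO replicate 1 and 5.61 without DMSO replicate 3. SARDH (chromosome 9, 133663560 to 133739955), which takes the last methyl group from sarcosine to give glycine, had 10, 9 and 9 counts with ML141 and 0, 1 and 0 counts with DMSO. The ratio of summed counts over library size was 21.8 with a 95% Clopper-Pearson interval of 3.60 to 890, for counting error only. SARDH did not pass the low-count filter. In the fit without that filter it was higher (log2 4.08, SE 0.922, edgeR adjusted p = 2.44e-04), and the authors' deposited table gives it an adjusted p of 0.00673. GNMT, which makes sarcosine from glycine with S-adenosylmethionine, had 0, 2 and 4 counts with ML141 and 4, 8 and 2 counts with DMSO, a ratio of 0.333 (95% Clopper-Pearson interval 0.105 to 0.923, counting error only). It was not called without the filter (edgeR adjusted p = 0.131). DMGDH, SARDH and GNMT are best known from liver. The 4 liver markers summed to 3.33 to 4.90 CPM with ML141 and 1.06 to 1.56 CPM with DMSO, with ALB and CPS1 higher, TTR at 0 and APOA1 at 1 count in all. ALB had 1, 3 and 3 counts and CPS1 11, 9 and 8 counts with DMSO. Both passed the low-count filter only through the ML141 libraries, where they are high. The part of the liver markers in the DMGDH and SARDH results was not tested.

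**Figure D3:**
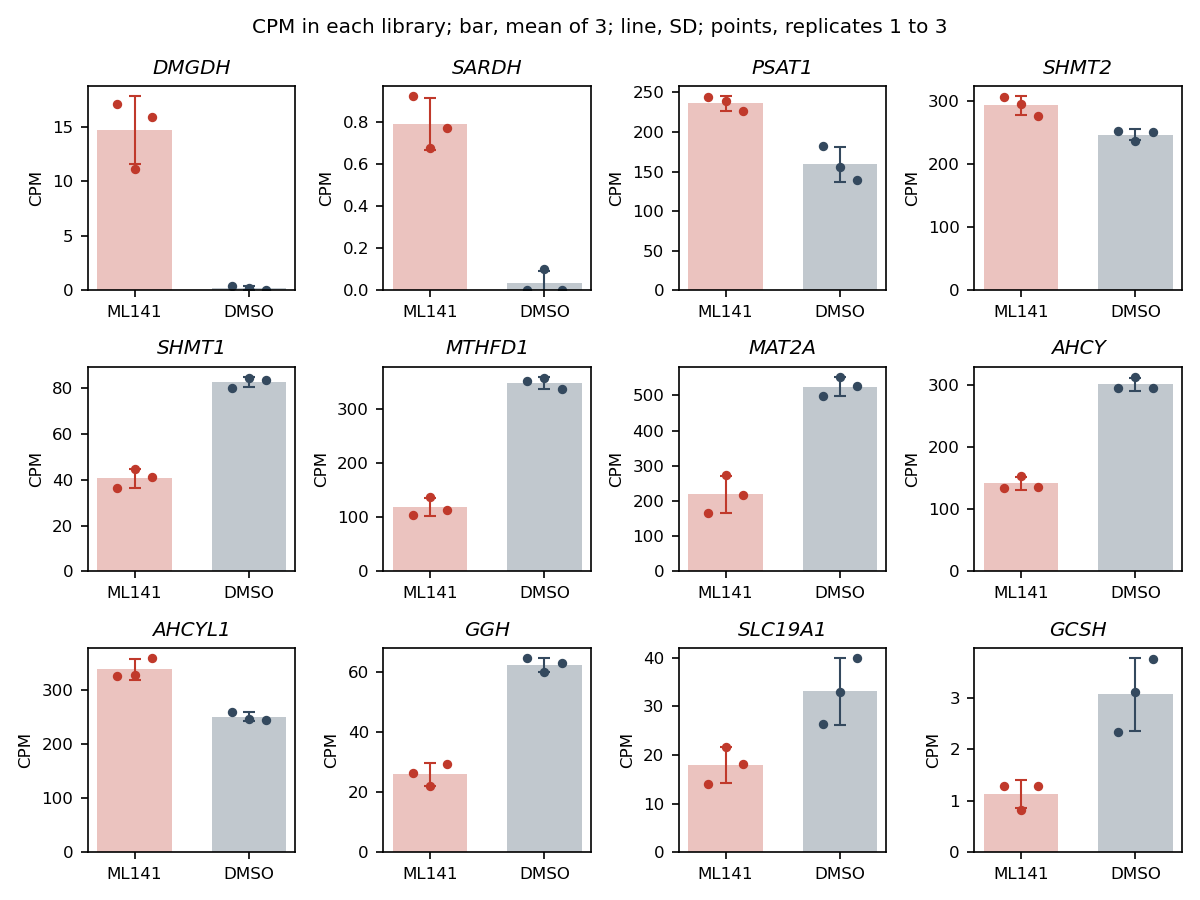
CPM of 12 members in each library, ML141 left of DMSO in each panel, with bars for the mean of 3 libraries, lines for the SD and points for replicates 1 to 3. DMGDH and SARDH are near 0 with DMSO and present in all 3 ML141 libraries, while SHMT1, MTHFD1, MAT2A, AHCY and GGH are lower in every ML141 library than in any DMSO library.

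DMGDH shares its locus with other genes. GENCODE release 29 places it on chromosome 5 from 78997606 to 79236038 on the minus strand (GRCh38, the same build as hg38), with 10 annotated transcripts. Of these, 3 start 151 to 251 bases from the start of JMY, a gene on the plus strand (79236189 to 79327215), and none of the 3 is coding. JMY, a regulator of actin nucleation and p53 activity, had 1927, 1557 and 1434 counts with ML141 and 457, 480 and 546 counts with DMSO, and rose by 1.38 on the log2 scale (SE 0.149, edgeR adjusted p = 1.30e-05). The coding transcript with the longest span, DMGDH-201, starts at 79069649, beside the start of BHMT2 at 79069717 on the plus strand, and BHMT2 had no count in any library. Which DMGDH transcripts gave the counts, and which annotation they were counted on, is not given in the sources used here. Neighbours differed in direction: ARSB did not change detectably (log2 -0.05, edgeR adjusted p = 0.709), and LHFPL2 fell (log2 -1.91, edgeR adjusted p = 1.89e-05).

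The DMGDH promoter is shown because the gene has the largest rise, a choice made after the values were seen. It is a RefSeq start window of DMGDH, on the BHMT2 side and not beside JMY, chr5:79069625-79069924 on the minus strand (GRCh38.p14), and none of the motifs searched is in it.
DMGDH: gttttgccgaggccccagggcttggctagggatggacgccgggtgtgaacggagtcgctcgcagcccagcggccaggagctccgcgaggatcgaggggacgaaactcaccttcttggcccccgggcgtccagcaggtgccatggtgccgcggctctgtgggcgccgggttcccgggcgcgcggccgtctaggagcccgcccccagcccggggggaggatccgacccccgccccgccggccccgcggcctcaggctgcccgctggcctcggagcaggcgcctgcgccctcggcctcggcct

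The glycine cleavage system, which breaks glycine down in mitochondria and passes a carbon to folate, had 3 members with low counts, GCSH, GLDC and AMT. GCSH (chromosome 16, 81081938 to 81096425), its lipoylated carrier protein, had 1.30, 0.830 and 1.29 CPM with ML141 and 2.33, 3.11 and 3.76 CPM with DMSO, 40 counts against 87. It fell without overlap (log2 -1.46, SE 0.300, edgeR adjusted p = 0.00149). Of its exon bases 14.3% and 13.9% are shared with AC092718.3 and AC092718.8 on the same strand. GLDC (chromosome 9, 6532464 to 6645783), the decarboxylase, had 0.741, 1.13 and 2.32 CPM with ML141 and 1.69, 2.18 and 3.47 CPM with DMSO. Its libraries overlapped and it was not called (log2 -0.83, SE 0.404, edgeR adjusted p = 0.102), but without ML141 replicate 3 it was (log2 -1.38, edgeR adjusted p = 0.0220). AMT, the aminomethyltransferase, had 5, 19 and 14 counts with ML141 and 2, 3 and 10 counts with DMSO. The ratio was 1.97 (95% Clopper-Pearson interval 1.06 to 3.85, counting error only), with no call in the fit without the filter (edgeR adjusted p = 0.133), and 74.6% of its exon bases are shared with AC104452.1 on the same strand. DLD, the dehydrogenase that the system shares with other complexes and not one of the 32, averaged 152 ± 16.9 CPM with ML141 and 191 ± 6.42 CPM with DMSO (SD, n = 3 each) and fell by 0.34 on the log2 scale (SE 0.091, edgeR adjusted p = 0.00792), a call lost with library totals (edgeR adjusted p = 0.0992).

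In the methionine cycle the enzymes that make and recycle the methyl donor fell, and MAT2B, MTRR and AHCYL1, their partners or relatives, did not pass as lower. MAT2A (chromosome 2, 85539165 to 85545280), the catalytic subunit that makes S-adenosylmethionine outside the liver, had 167, 273 and 218 CPM with ML141 and 497, 553 and 525 CPM with DMSO. ML141 replicate 1 was the lowest and replicate 2 the highest of the treated libraries, all below DMSO, for a fall of 2.39-fold (log2 -1.26, SE 0.141, edgeR adjusted p = 1.68e-05). Its exons share 14.9% of bases with GGCX on the opposite strand. MAT2B, the regulatory subunit, averaged 162 ± 17.1 CPM with ML141 and 156 ± 11.4 CPM with DMSO (SD, n = 3 each; log2 0.06, SE 0.095, edgeR adjusted p = 0.627), and was higher only with library totals among the alternatives run (log2 0.23, edgeR adjusted p = 0.0359). MAT2A over MAT2B was 0.924, 1.86 and 1.37 with ML141 and 2.94, 3.68 and 3.54 with DMSO, 2.54-fold lower.

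AHCY (chromosome 20, 34280268 to 34311802), the hydrolase that clears S-adenosylhomocysteine, the product that inhibits methyltransferases, had 135, 154 and 136 CPM with ML141 and 295, 313 and 295 CPM with DMSO. It fell 2.12-fold (log2 -1.09, SE 0.081, edgeR adjusted p = 8.97e-07). AHCYL1 (chromosome 1, 109984686 to 110023741), a related protein known for binding the IP3 receptor and not for hydrolase activity, had 326, 329 and 360.1 CPM with ML141 and 260.1, 247 and 245 CPM with DMSO. It rose 1.35-fold without overlap (log2 0.43, SE 0.077, edgeR adjusted p = 5.24e-04). AHCY over AHCYL1 was 0.414, 0.469 and 0.379 with ML141 and 1.13, 1.27 and 1.21 with DMSO, 2.87-fold lower, below 1 in every ML141 library and above 1 in every DMSO library. MTR (chromosome 1, 236795281 to 236903981), the cobalamin-dependent methionine synthase, had 88.5, 98.6 and 85.7 CPM with ML141 and 119, 119 and 114 CPM with DMSO. It fell 1.29-fold (log2 -0.36, SE 0.085, edgeR adjusted p = 0.00341), and with library totals it was not called (log2 -0.19, edgeR adjusted p = 0.0696). MTRR, which reactivates MTR, averaged 62.2 ± 5.82 CPM with ML141 and 70.1 ± 2.98 CPM with DMSO (SD, n = 3 each; log2 -0.17, SE 0.097, edgeR adjusted p = 0.153), and passed the test without ML141 replicate 1 (edgeR adjusted p = 0.0257). MTR over MTRR was 1.28, 1.70 and 1.43 with ML141 and 1.65, 1.66 and 1.71 with DMSO, overlapping (2-sided exact permutation p = 0.3, adjusted 0.333).

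Transsulfuration could be read from 1 gene. CTH (chromosome 1, 70411218 to 70439851), which releases cysteine from cystathionine, averaged 7.14 ± 0.776 CPM with ML141 and 5.88 ± 0.912 CPM with DMSO (SD, n = 3 each). It was not called (log2 0.28, SE 0.188, edgeR adjusted p = 0.218). CBS, which makes cystathionine, had no count in any library. Of the distinct 50-base stretches of its annotated transcripts 54.5% (3839 of 7048) are also found in CBSL, an annotated copy on the same chromosome that has no entry in the deposited table, so the 0 for CBS is uncertain.

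Set per kilobase of annotated exon, so that genes can be compared with each other, PHGDH had the highest level of the 32 in both groups, 157 ± 11.1 CPM per kb with ML141 and 148 ± 7.87 CPM per kb with DMSO (SD, n = 3 each). With ML141 the next were PSAT1 at 108 ± 4.29, SHMT2 at 96.9 ± 5.10 and MTHFD2 at 95.5 ± 3.72 CPM per kb, SHMT2 and MTHFD2 lying within their spread, then AHCYL1 at 71.8 ± 3.998, MAT2A at 58.4 ± 14.1 and AHCY at 57.3 ± 4.30 CPM per kb, MAT2A overlapping both neighbours. With DMSO the next after PHGDH were MAT2A at 140.0 ± 7.45, within the spread of PHGDH, AHCY at 122 ± 4.28, MTHFD2 at 94.3 ± 5.74, SHMT2 at 81.7 ± 2.92 and PSAT1 at 72.8 ± 10.1 CPM per kb, the spreads of SHMT2 and PSAT1 overlapping. MTHFD1 was 13th of the 32 with ML141 at 17.3 ± 2.46 CPM per kb and 8th with DMSO at 50.5 ± 1.59 CPM per kb. MTHFD2L was far below MTHFD2 in both groups, at 3.82 ± 0.782 CPM per kb with ML141 and 3.72 ± 0.634 CPM per kb with DMSO. DMGDH, at 4.73 ± 1.00 CPM per kb with ML141 and 0.0640 ± 0.0627 CPM per kb with DMSO, was 19th with ML141 and 27th with DMSO. Taking the longest transcript as the length placed MAT2A, at 186 CPM per kb, above PHGDH, at 152 CPM per kb, with DMSO.

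**Figure D4:**
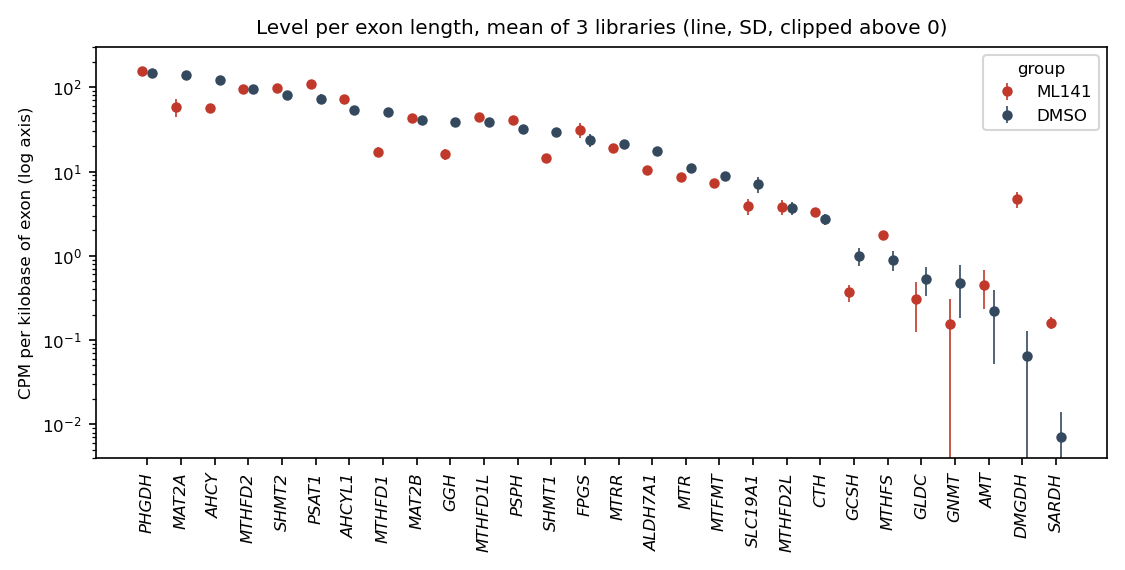
Mean level per kilobase of exon of the 28 members with a count in both groups, on a log axis, ML141 left of DMSO for each gene and genes ordered by the DMSO level. Lines are the SD of 3 libraries and run off the axis where the SD exceeds the mean. PHGDH leads in both groups, and DMGDH lies in the middle of the range with ML141 and at the low end with DMSO.

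Promoter motifs were counted in RefSeq windows of 300 bases (GRCh38.p14) on both strands, over 45 windows of the 26 members that have one and 35116 windows of 27305 genes in all. A gene was counted if any of its windows held the motif. The members had more windows per gene than all genes, so the shares below are not strictly alike. CACGTG, the E-box that MYC and related factors bind, was in 4 members, FPGS, MTHFD1, MTHFD1L and SLC19A1, or 15.4%, against 8.77% of all genes. Of these 4, MTHFD1 and SLC19A1 fell, FPGS rose and MTHFD1L was not called. TGATGNAA was in 1 member, MTHFD1L, against 4.46% of all genes. TTTCGCGC or TTTGGCGC, sites of E2F factors, were in 0 members, against 1.4% of all genes. In the MTHFD1L window CACGTG and TGATGCAA do not overlap. A match is a description of letters and not a bound site.

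The genes around the 32 were read from lists of the same pathways. Of 59 such genes 45 were tested, 11 higher (24.4%) and 20 lower (44.4%), where 26.7% of all genes tested were higher and 27.7% lower. Among folate carriers and folate-using enzymes 2 of 7 tested rose (28.6%, against 26.7% of all genes) and 5 fell (71.4%, against 27.7%), the median change being -0.55 (log2). TYMS, which makes thymidylate and turns methylene-tetrahydrofolate into dihydrofolate, averaged 192 ± 57.4 CPM with ML141 and 648 ± 21.8 CPM with DMSO (log2 -1.76, SE 0.168, edgeR adjusted p = 5.19e-06). GART, a purine synthesis enzyme that uses formyl-tetrahydrofolate, fell by 0.62 on the log2 scale (SE 0.078, edgeR adjusted p = 4.36e-05). The folate receptor genes FOLR1 and FOLR2 had 0 and 2 counts in all.

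Among transporters and enzymes of serine and glycine breakdown 5 of 11 tested rose (45.5%, against 26.7% of all genes) and 4 fell (36.4%, against 27.7%), with a median of 0.17. Without DMSO replicate 3 the higher count was 3, as SLC1A5 and SLC25A38 lost their calls (edgeR adjusted p = 0.0527 and 0.0601). SFXN1, the carrier that brings serine into mitochondria, fell 2.13-fold (log2 -1.09, SE 0.087, edgeR adjusted p = 1.35e-06), to 116 ± 11.3 CPM with ML141 against 249 ± 2.81 CPM with DMSO. Its relative SFXN2 fell by 1.74 on the log2 scale (SE 0.216, edgeR adjusted p = 3.77e-05), and SFXN3, which can also carry serine, rose by 1.13 (SE 0.128, edgeR adjusted p = 1.81e-05). SLC6A9, a glycine transporter of the plasma membrane, had 21, 29 and 27 counts with ML141 and 4, 1 and 2 counts with DMSO. It rose by 3.03 on the log2 scale (SE 0.444, edgeR adjusted p = 1.34e-04), or 3.75 without DMSO replicate 1. SLC6A9 passed the low-count filter only through the ML141 libraries, and the filter on both groups leaves it untested.

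Among choline, betaine and electron transfer genes 2 of 9 tested rose (22.2%, against 26.7% of all genes) and 4 fell (44.4%, against 27.7%), with a median of -0.14. With library totals 2 fell, as SLC44A1 and ETFDH lost their calls, and ETFDH lost its call without ML141 replicate 2 and without each DMSO library too (edgeR adjusted p = 0.0592 to 0.138). PIPOX, a peroxisomal enzyme that oxidises sarcosine and pipecolate, had 51, 90 and 64 counts with ML141 and 10, 7 and 9 counts with DMSO, under the minimum of the filter on both groups, and rose by 2.58 on the log2 scale (SE 0.289, edgeR adjusted p = 1.67e-05). DMGDH, PIPOX and SARDH were higher in every ML141 library than in any DMSO library, as were 30.5% of all genes tested. PIPOX, like DMGDH, passed the low-count filter only through the ML141 libraries, and SARDH did not pass it. BHMT, which makes dimethylglycine, had 1 count in all. SLC44A2, a choline transporter, rose by 0.72 (SE 0.084, edgeR adjusted p = 2.20e-05). ETFA, a subunit of the flavoprotein that takes electrons from DMGDH and SARDH, fell by 0.44 (SE 0.093, edgeR adjusted p = 0.00187), and CHKA, choline kinase, fell by 0.49 (SE 0.120, edgeR adjusted p = 0.00438).

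Among genes of methionine salvage, cobalamin handling and methyl use 2 of 11 tested rose (18.2%, against 26.7% of all genes) and 6 fell (54.5%, against 27.7%), with a median of -0.49. AMD1, which turns S-adenosylmethionine into the aminopropyl donor of polyamine synthesis, averaged 147 ± 9.18 CPM with ML141 and 414 ± 30.9 CPM with DMSO (log2 -1.495, SE 0.086, edgeR adjusted p = 1.64e-07). The synthases that use that donor, SMS and SRM, fell by 1.502 (SE 0.126, edgeR adjusted p = 1.99e-06) and 0.80 (SE 0.1254, edgeR adjusted p = 2.16e-04) on the log2 scale. ENOPH1 of the salvage pathway fell by 0.71 (SE 0.088, edgeR adjusted p = 3.85e-05), and MTAP, the first salvage enzyme, had 1 count in all. Of 7 tested genes that use cysteine or sulfide, 0 rose and 1 fell (14.3%, against 27.7% of all genes), TST, a sulfurtransferase (log2 -0.38, SE 0.134, edgeR adjusted p = 0.0300). The call of TST was lost under 9 of the alternatives, with edgeR or DESeq2 adjusted p of 0.0506 to 0.197. MPST, another sulfurtransferase, was not called (log2 0.27, SE 0.110, edgeR adjusted p = 0.0551) but was higher with upper-quartile factors, library totals, the stricter filter and a replicate block and without DMSO replicate 3. CSAD, which makes hypotaurine, was higher only without ML141 replicate 1 among the alternatives run (edgeR adjusted p = 0.0381).

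**Figure D5:**
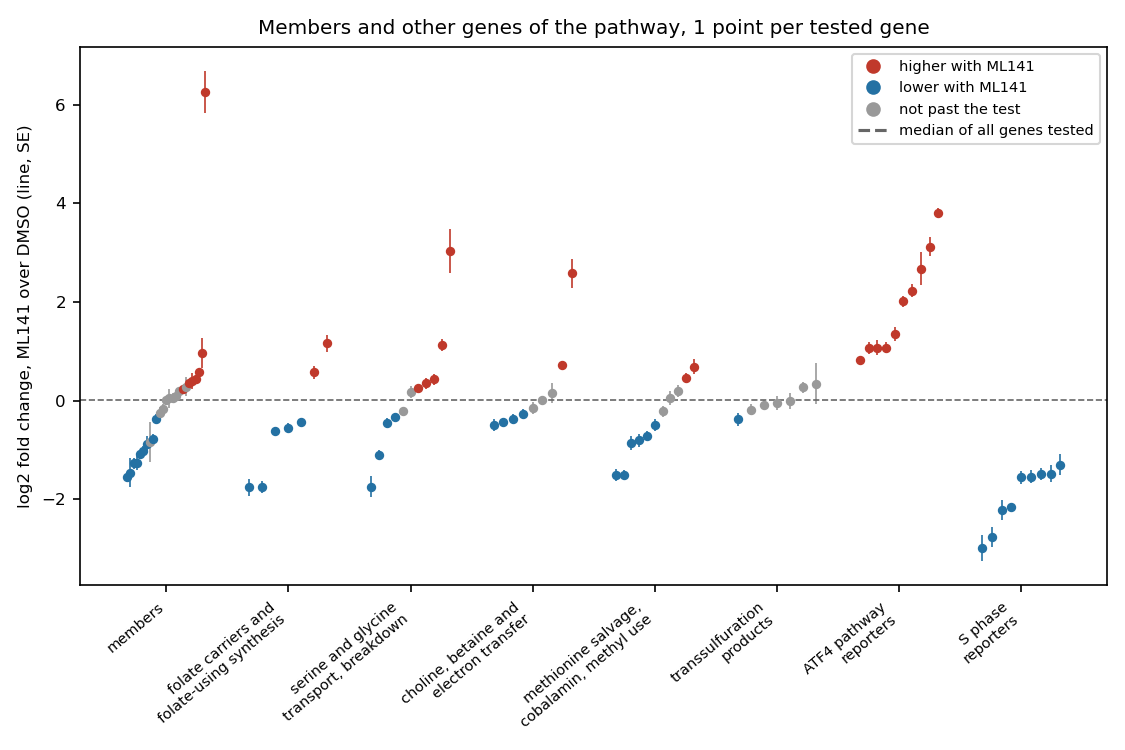
Log2 fold change of ML141 over DMSO with its SE, 1 point per tested gene, for the 25 tested members and for each list of related genes, ordered within a list by value, with the median of all genes tested as a dashed line. Members and most related lists spread to both sides of the line, while the 10 ATF4 reporters all lie above it and the 9 S phase reporters all below it.

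Reporter lists of programs known to act on some of these genes were read beside them. The lists were chosen with earlier results of these data known, so their counts are not independent support. ATF4, the transcription factor of the amino acid response, is known to drive PHGDH, PSAT1, PSPH, SHMT2 and MTHFD2 among others. All 10 ATF4 reporters rose (100%, against 26.7% of all genes tested), their median being 1.68 (log2). They included TRIB3 at 3.804 (SE 0.096, edgeR adjusted p = 6.43e-10), SESN2 at 2.02, CEBPB at 2.23 and DDIT3 at 3.13. Their summed level was 2246, 2036 and 2033 CPM in ML141 replicates 1, 2 and 3 and 809, 787 and 752 CPM in DMSO replicates 1, 2 and 3. The 7 members called higher summed to 1050, 1057 and 1054 CPM with ML141 and 823, 771 and 771 CPM with DMSO, while PHGDH and MTHFD2 were not called. Of these 7, PSAT1, PSPH and SHMT2 are among the ATF4 targets named above, and AHCYL1, FPGS, DMGDH and MTHFS are not. AHCYL1 alone averaged 338 CPM with ML141 and 251 CPM with DMSO. The 7 were picked by their call, so the direction of their sum was fixed in advance. All 9 S phase reporters fell (100%, against 27.7% of all genes tested), with a median of -1.55, among them PCNA at -2.16 and RRM2 at -2.76. The 9 members called lower summed to 621, 812 and 704 CPM with ML141 and 1529, 1626 and 1554 CPM with DMSO. They too were picked by their call, which fixed the direction of their sum. ML141 replicate 1, the lowest library of the S phase reporters, was also the lowest ML141 library in 6 of these 9 members. The share of all genes with that library lowest is not given here. Within the DMSO group, replicate 2 was the lowest in 7 of the 9 S phase reporters but the highest in 6 of these 9 members. For the ATF4 reporters, ML141 replicate 1 was the highest ML141 library in 8 of 10. Among the 7 members called higher, ML141 replicate 1 was the highest ML141 library in 4 and the lowest in 3. The part of either program in the members' changes was not tested.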

How the data were processed

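Libraries were made from the RNA of REH cells, 3 of cells given 25 µM ML141 and 3 of cells given DMSO for 24 h, with the Illumina TruSeq RNA v2 protocol per the labels, which keeps no strand information. Raw counts for each gene symbol and library were deposited by the authors as whole numbers. The build hg38 and the tools featureCounts, Bowtie2, Trimmomatic, Picard, DESeq2 and bcl2fastq 2.19 are named by the submitters' processing notes. Settings, gene annotation and strand mode: not given in the sources used here. The authors also deposited size-factor-normalized values rounded to whole numbers (score), left unused, and their own comparison as a log2 fold change with a p-value and its adjusted form, printed only where the text names that table.

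Members were matched by symbol. The members, the pathway lists and the rules for naming genes were chosen with earlier results of these data known. All 32 members are named. Those called without overlap and changed at least 1.5-fold, or under 1 CPM on average in a group, are given in every library, and up to 4 called genes with the smallest p are named per list, except that some list genes are not reported here. Replicates of a group differed by more than sampling noise (chi-square per degree of freedom 2.97 to 19.6). Genes passing edgeR's filterByExpr (minimum count 10, minimum total 15) were scaled with TMM and tested with edgeR 4.0.16 (glmQLFit, glmQLFTest, R 4.3.3), with no covariate, 2-sided, and p-values were adjusted by Benjamini-Hochberg over all 11454 genes at a threshold of 0.05. The standard error is the absolute log2 fold change over the square root of F. Ratios of members used a pseudocount of 2 counts and exact permutation tests (SciPy 1.17.1). Positions and exon overlaps come from GENCODE release 29, promoters from RefSeq. The fit was tested on simulated data. Scaling was also run with upper-quartile factors, library totals and DESeq2 size factors, and filtering with no minimum or a stricter one (10 counts on average in both groups, and 3 libraries at 1 CPM). Further alternatives were limma-voom (3.58.1), DESeq2's Wald test (1.42.0), a block for replicate number, leaving out each library, a ratio pseudocount of 0.5, the longest transcript as length, and TGATGCAA alone as motif.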

Additional observations from a re-analysis of the deposited data

How the results depend on the processing

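The count of members called lower stayed at 8 to 10 under every alternative run. The count called higher was 7, against 11 with library totals and 4 to 8 with a library left out, the 4 without DMSO replicate 2, and 5 to 8 otherwise. No refit of a single member reversed a call: 328 kept their side of the threshold, 9 gained a call and 11 lost one. Among list genes 858 kept it, 13 gained a call and 23 lost one. Leaving out a library cost FPGS, MTHFS and SHMT2 their calls and no other member. Libraries with the same replicate number deviated together with correlations of 0.374, 0.0847 and 0.178. Of libraries with unlike numbers, ML141 replicate 2 correlated with DMSO replicate 3 at 0.291, and the others ran from -0.366 to -0.0287. Sample descriptions share a token (CV, Reh1, Reh3) between the groups for each number, and the labels do not say what it marks. Whether the numbers pair the samples was not settled, and the main fit used no block. With the replicate block 8 members were higher and 10 lower, and 6979 genes were called against 6230, MTHFD1L (adjusted p = 0.0321) and GLDC (adjusted p = 0.0244) among those gained. Member ratios kept their sign under every alternative run except MTHFD2 over MTHFD2L, which ran from -0.11 to 0.11 on the log2 scale, and with signs flipped within numbers the smallest possible exact permutation p is 0.25. Depth limits DMGDH in DMSO, SARDH, GNMT, AMT, MTHFS, GLDC and GCSH, where a few counts set the value.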
